A study of Mus musculus with 384 samples.

Results

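The 37 genes described here encode the enzymes and transporters of glycolysis, the enzymes of the pentose phosphate pathway, and 4 proteins of the response to low oxygen. They were taken by symbol from a table of 23420 genes measured in single tumour-infiltrating T cells of mice carrying B16F10 melanoma, a transplantable skin tumour line, and all 37 were found. Cells were profiled by Smart-seq2, a plate method that reads full-length transcripts without molecular identifiers. By the sample titles there were 4 plates, namely CD4 cells of the Il27ra knockout source (KO CD4), CD4 cells of the wild-type source (WT CD4), CD8 cells of the knockout source (KO CD8) and CD8 cells of the wild-type source (WT CD8). Each plate held 94 single-cell wells, 1 Population library and 1 no-cell well. The strain label was C57BL/6 throughout, and Il27ra encodes the ligand-specific chain of the IL-27 receptor. The part of Il27ra that was deleted, the age of the mice and the number of cells in a Population library are not stated in the labels. The treatment text mentions no CD4 cells, but 2 plates are titled CD4, and plates were grouped by title. The labels name 1 source per genotype (KO4 and WT4) without saying whether it was 1 mouse, so genotype, source and plate cannot be told apart. The titles carry further codes that are not explained and differ between plates, so taking the CD4 and CD8 plates of a genotype as 1 source is a reading of the titles.

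Glycolysis splits glucose into pyruvate in the cytosol, and lactate dehydrogenase turns pyruvate into lactate, which leaves the cell through monocarboxylate transporters. The pentose phosphate pathway branches off at glucose phosphate, with an oxidative arm that makes NADPH and a non-oxidative arm that exchanges sugars with glycolysis and supplies ribose for nucleotides. T cells raise both pathways when they are activated and divide, and the hypoxia-inducible factor, whose alpha subunit is encoded by Hif1a, is a known activator of many glycolytic genes when oxygen is low.

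A gene was called detected in a cell at 1 FPKM (fragments per transcript length and library size, TMM-normalized by the authors) or more, and a cell was kept if it had 1000 or more detected genes. This left 78 of 94 KO CD4, 74 of 94 WT CD4, 77 of 94 KO CD8 and 72 of 94 WT CD8 cells. The WT CD8 plate was the richest, where kept cells had a median of 2530.5 detected genes and about 1204479 estimated reads, against 2047 to 2243 genes and 851918 to 895456 estimated reads on the other 3. Population libraries held 9918 to 10848 detected genes and no-cell wells 6 to 26. Il27ra, the targeted gene, was detected in 47.4% of KO CD4 and 36.5% of WT CD4 cells, and in 57.1% of KO CD8 and 51.4% of WT CD8 cells. Its FPKM in the Population libraries was 133.4 in KO CD4 against 244.6 in WT CD4, and 92.9 in KO CD8 against 155.4 in WT CD8. Transcripts outside the deleted part may be counted, so these values do not check the genotype labels. Cd4 was detected in 91% of KO CD4 and 89.2% of WT CD4 cells and in at most 1 cell of a CD8 plate. Cd8a was detected in 81.8% of KO CD8 and 84.7% of WT CD8 cells and in at most 2 cells of a CD4 plate. Cd8b1, the other CD8 chain, was listed at 1 FPKM or more in 23.1% of KO CD4 and 25.7% of WT CD4 cells, at means of 0.567 FPKM in KO CD4 and 29.9 in WT CD4 cells, against 966.5 in KO CD8 and 1159 in WT CD8 cells. Its Population value was 122.2 FPKM in KO CD4, 5.34 in WT CD4, 2178 in KO CD8 and 2177 in WT CD8.

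Levels of the 37 genes spanned the table. Gapdh, the dehydrogenase that oxidizes glyceraldehyde phosphate, was detected in 96.2% of KO CD4, 97.3% of WT CD4, 98.7% of KO CD8 and 97.2% of WT CD8 cells. Its mean was 3597 FPKM in KO CD4, 4368 in WT CD4, 3758 in KO CD8 and 7019 in WT CD8 cells, and by mean FPKM it ranked between 8 and 16 among all 23420 genes. Ldha, which encodes the muscle-type subunit of lactate dehydrogenase, ranked between 34 and 59. It was detected in 92.3% of KO CD4, 86.5% of WT CD4, 94.8% of KO CD8 and 88.9% of WT CD8 cells, and its mean was 1999.8 FPKM in KO CD4, 2014 in WT CD4, 1822 in KO CD8 and 2538 in WT CD8 cells. Aldoa (aldolase), Eno1 (enolase) and Pkm (pyruvate kinase) followed. With Gpi1, which isomerizes glucose phosphate and had less RNA, these 6 genes were each detected in at least 80.5% of cells of every plate. RSEM assigns reads shared with pseudogenes or near copies by an estimate, and Gapdh, Ldha, Pgk1, Eno1, Pgam1 and Aldoa have such copies, so their levels carry that uncertainty.

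Tpi1, Pgk1 and Pgam1, whose steps lie next to those of Gapdh, Aldoa and Eno1, were detected less often than these. Tpi1, which interconverts the triose phosphates, was detected in 56.4% of KO CD4, 54.1% of WT CD4, 48.1% of KO CD8 and 62.5% of WT CD8 cells. Pgk1, the kinase that makes ATP from bisphosphoglycerate, was detected in 51.3% of KO CD4, 56.8% of WT CD4, 48.1% of KO CD8 and 69.4% of WT CD8 cells. Pgam1, the phosphoglycerate mutase, was detected in 42.3% of KO CD4, 41.9% of WT CD4, 46.8% of KO CD8 and 62.5% of WT CD8 cells. Where these 3 genes were detected they were abundant, with medians over detecting cells from 436.4 to 861.1 FPKM for Tpi1, 576.8 to 842.1 for Pgk1 and 528.1 to 782.9 for Pgam1. Per-cell values therefore fell into a group at 0 and a group of abundant values, as the plot of single cells shows for Pgk1 and Tpi1. The median of the abundant group lay below the Population value except for Pgam1 in WT CD4 cells. FPKM summed to a median of 721111 to 957169 in kept cells of a plate and to 1375767 to 1823543 in Population libraries. The scales thus differ, and nothing is read from that order.

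The entry steps had lower levels. Hk1, the hexokinase that phosphorylates glucose, was detected in 35.9% of KO CD4, 28.4% of WT CD4, 36.4% of KO CD8 and 37.5% of WT CD8 cells, with means of 22 to 27.4 FPKM. Pfkp, the platelet-type phosphofructokinase, was detected in 50% of KO CD4, 55.4% of WT CD4, 54.6% of KO CD8 and 63.9% of WT CD8 cells. Slc2a3, a high-affinity glucose transporter, was detected in 28.2% of KO CD4, 25.7% of WT CD4, 26% of KO CD8 and 33.3% of WT CD8 cells. In the Population libraries Hk1 stood at 36.3 to 68 FPKM and Slc2a3 at 113.3 to 195.5, against 8962 to 16023 for Gapdh. FPKM is a level per transcript length, so these values can be set side by side, but they are RNA levels and not enzyme amounts.

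In the pentose phosphate pathway the non-oxidative enzymes Taldo1 (transaldolase) and Tkt (transketolase) led. Taldo1 was detected in 47.4% of KO CD4, 51.4% of WT CD4, 53.3% of KO CD8 and 61.1% of WT CD8 cells, and Tkt in 55.1% of KO CD4, 40.5% of WT CD4, 50.7% of KO CD8 and 65.3% of WT CD8 cells. Of the oxidative arm, Pgls, the lactonase, was detected in 24.4% to 44.4% of cells, Pgd, phosphogluconate dehydrogenase, in 20.3% to 36.1%, and G6pdx, which commits glucose phosphate to the pathway, in 7.69% to 22.2%. Rpe, ribulose phosphate epimerase, was detected in 14.9% to 38.9%. Rpia, which isomerizes ribose phosphate, was detected in 2 KO CD4 and 2 WT CD4 cells and in none of 77 KO CD8 and 72 WT CD8 cells, whose exact 95% intervals reach 4.68% and 4.99%. It was listed at 0 FPKM in 3 of the 4 Population libraries and at 1.84 in that of WT CD8.

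**Figure D1:**
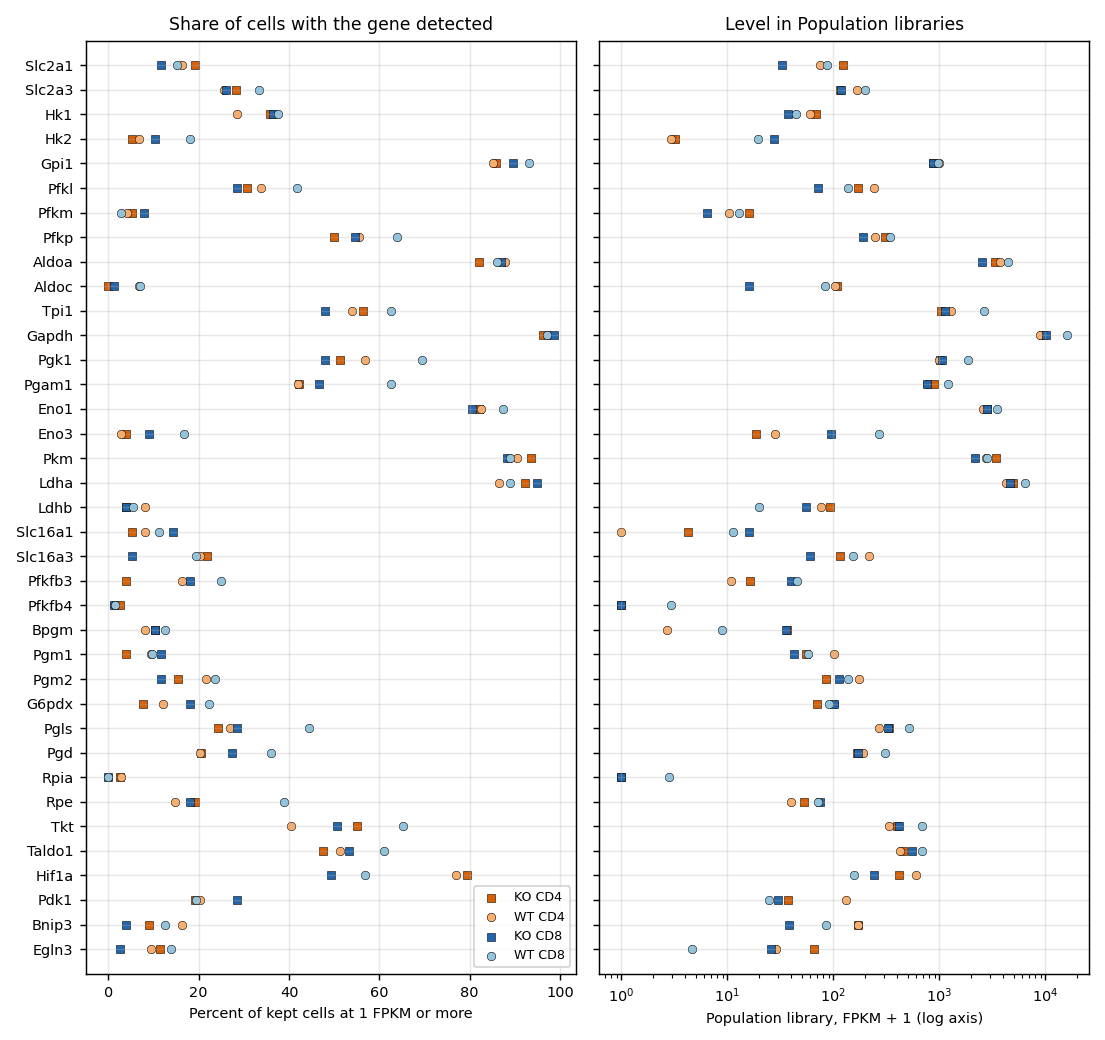
Share of kept cells with each of the 37 genes detected at 1 FPKM or more (left, percent) and FPKM + 1 in the Population library (right, log axis), by plate; each point is 1 plate or 1 library, squares are KO and circles WT. Gapdh, Ldha, Aldoa, Eno1, Pkm and Gpi1 lie at 80.5% of cells or more on every plate, and Hif1a is the hypoxia gene with the highest share.

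Other members were sparse. Pfkm, Aldoc, Ldhb, Pfkfb4 and Rpia were below 10% of cells on all 4 plates, and Eno3, Hk2, Slc16a1, Pgm1 and Bpgm reached at most 18.1% on any. Pfkfb3, whose product makes the activator of phosphofructokinase, was detected in 3.85% of KO CD4, 16.2% of WT CD4, 18.2% of KO CD8 and 25.0% of WT CD8 cells. RefSeq lists Pgm1 and Pgm2, which interconvert glucose phosphates, as synonyms of each other, so which gene each row holds is uncertain. Of the hypoxia genes, Hif1a was detected in 79.5% of KO CD4, 77% of WT CD4, 49.4% of KO CD8 and 56.9% of WT CD8 cells. Pdk1, the kinase that holds back pyruvate dehydrogenase, was detected in 19.2% to 28.6%, Bnip3, a mitophagy receptor, in 3.90% to 16.2%, and Egln3, an oxygen-sensing prolyl hydroxylase, in 2.60% to 13.9%.

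Promoter sequences of 36 of the 37 genes were matched by symbol in RefSeq (GRCm38.p6, 250 bases before to 50 after each start), Slc2a3 being the exception, and 50 starts were listed for them. The core of the motif bound by the hypoxia-inducible factor was searched as ACGTG or GCGTG on both strands. It occurred in 80% of these 50 promoters, in 43.8% of all 32851 promoters of the table and in 63.4% of the 7999 promoters of genes detected in at least 10% of cells of a plate. For the members that passed that same detection limit it was 78.1% of 41 promoters. ACGTG alone was in 46% of the 50 promoters and in 26.7% of the 7999. No start listed for Tpi1, Bpgm, Gpi1 or Rpe held the motif, which says only that these letters were absent from the windows. A match is a description of letters and not a binding site. A palindromic CACGTG holds ACGTG on both strands and counts as 2 matches. The following promoters are written 5′ to 3′ on the gene's strand with matches in capitals. They belong to the 2 genes with the widest knockout difference in CD8 cells (Pgk1 with 2 matches and Tpi1 with 0), to the lactate dehydrogenase gene with the most RNA (the first of 2 starts of Ldha, with 7 matches), and to the gene with the widest CD4 to CD8 difference (Hif1a with 3 matches).
Pgk1 chrX:106186850-106187149 (plus strand): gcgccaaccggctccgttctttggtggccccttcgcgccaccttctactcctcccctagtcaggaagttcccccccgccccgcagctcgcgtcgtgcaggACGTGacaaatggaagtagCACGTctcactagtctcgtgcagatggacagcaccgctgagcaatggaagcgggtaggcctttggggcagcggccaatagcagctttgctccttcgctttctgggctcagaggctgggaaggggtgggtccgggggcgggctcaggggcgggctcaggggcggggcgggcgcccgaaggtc
Tpi1 chr6:124814109-124814408 (minus strand): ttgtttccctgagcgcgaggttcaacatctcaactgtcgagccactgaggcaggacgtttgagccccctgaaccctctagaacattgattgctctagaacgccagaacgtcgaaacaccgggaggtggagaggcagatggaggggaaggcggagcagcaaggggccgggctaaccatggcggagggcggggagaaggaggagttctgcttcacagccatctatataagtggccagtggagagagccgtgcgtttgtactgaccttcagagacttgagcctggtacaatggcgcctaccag
Ldha chr7:46845554-46845853 (plus strand): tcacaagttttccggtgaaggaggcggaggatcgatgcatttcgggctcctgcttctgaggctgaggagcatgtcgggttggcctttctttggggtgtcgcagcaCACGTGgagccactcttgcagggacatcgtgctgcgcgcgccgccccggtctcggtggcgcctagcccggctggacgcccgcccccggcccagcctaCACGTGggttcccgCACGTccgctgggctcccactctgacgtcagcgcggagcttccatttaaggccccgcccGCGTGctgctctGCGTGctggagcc
Hif1a chr12:73907617-73907916 (plus strand): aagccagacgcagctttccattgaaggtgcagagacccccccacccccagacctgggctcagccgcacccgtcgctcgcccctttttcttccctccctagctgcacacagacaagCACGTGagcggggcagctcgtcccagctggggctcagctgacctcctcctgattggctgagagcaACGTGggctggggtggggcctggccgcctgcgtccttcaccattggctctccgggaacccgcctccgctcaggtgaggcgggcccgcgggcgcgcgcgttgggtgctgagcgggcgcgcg

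Where several genes encode the same step, 1 form usually held most of the RNA. Aldoa made up 99% to 100% of summed mean aldolase FPKM, Eno1 95% to 99.8% of enolase and Ldha 98.5% to 99.3% of lactate dehydrogenase over the 4 plates. Hk1 held 83.3% of hexokinase FPKM in KO CD4, 72.4% in WT CD4, 82.3% in KO CD8 and 67.1% in WT CD8 cells, and Hk2 the rest. In the CD4 Population libraries Hk2 held only 3.17% (KO) and 3.20% (WT), against 42.1% in the KO CD8 and 29.8% in the WT CD8 library. Pfkp held 65.8% to 75.8% of phosphofructokinase FPKM, Pfkl most of the remainder and Pfkm at most 6.06%. In the Population libraries Pfkp held 62.2% in KO CD4, 49.7% in WT CD4, 71.4% in KO CD8 and 69.5% in WT CD8. Pfkl held 48.5% in the WT CD4 library. For glucose transport, the split differed between plates. Slc2a1, the widely expressed glucose transporter, held 57.1% in KO CD4, 51.9% in WT CD4, 19.2% in KO CD8 and 30.3% in WT CD8 cells. Only 4 to 8 cells of a plate had both transporters, of 25 to 30 with either. Without cells in which a melanoma, myeloid or B cell gene or the coreceptor of the other lineage reached 10 FPKM, termed doubtful cells, the Slc2a1 share was 36.3% in KO CD4, 35% in WT CD4, 17.6% in KO CD8 and 38.9% in WT CD8 cells, so the order of the plates changed. For lactate export, Slc16a3 held 87.6% in KO CD4, 86.2% in WT CD4 and 75.2% in WT CD8 cells but 39.4% in KO CD8 cells, where Slc16a1 held 60.6%. In the KO CD8 Population library Slc16a3 held 79.6%, and these shares rest on 15 to 21 detecting cells a plate.

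The first comparison was KO CD8 against WT CD8 cells. Pgk1 and Tpi1, of glycolysis, were furthest apart of the members and lower on the KO plate. Also lower were 7 further genes of glycolysis, its side branches and the pentose phosphate pathway, while Ldha and Pdk1 were not called. Per gene, the mean of log2(FPKM + 1) over kept cells was compared between the plates, a scale that combines the share of detecting cells with their level. With 1 plate a group there is no test, and a gene was called lower or higher at a difference of at least 1 log2. Of the 37 genes, 32 were detected in at least 10% of cells of either plate. Of these 27 passed on both plates, Pgm1 on the KO plate alone and Eno3, Slc16a3, Bnip3 and Egln3 on the WT plate alone, and Pfkm, Aldoc, Ldhb, Pfkfb4 and Rpia on neither. Those that passed on 1 plate alone had to differ to some extent.

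Pgk1 (chromosome X, 106187100 to 106203699 in GRCm38) had a mean of 4.42 ± 4.72 log2 in KO CD8 cells and 6.59 ± 4.64 in WT CD8 cells (SD over 77 and 72 cells), a difference of -2.17. Its share of detecting cells was 48.1% (exact 95% interval 36.5 to 59.7) in KO and 69.4% (57.5 to 79.8) in WT CD8 cells, and its Population value was 1064 FPKM in KO and 1875 in WT. The per-cell values overlapped almost fully, and the plates differed mainly in how many cells lay at 0. Tpi1 (chromosome 6, 124810586 to 124814296) had 4.25 log2 in KO and 6.08 in WT CD8 cells, a difference of -1.84, and a Population value of 1124 FPKM in KO and 2610 in WT. Next came Pgls at -1.45 (2.19 in KO, 3.64 in WT), Pgam1 at -1.43 (4.24 in KO, 5.67 in WT), Rpe at -1.36 (1.26 in KO, 2.62 in WT) and Tkt at -1.34 (4.04 in KO, 5.38 in WT). Gpi1 (-1.23), Pfkp (-1.14) and Pgm2 (-1.08) completed the 9 genes called lower. No member was called higher.

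Read against the table, 9 of 32 members (28.1%) were lower by at least 1 log2, where 9.19% of all 8117 genes tested were, and 0 were higher, where 2.07% were. Among genes in at least 25% of cells of either plate, 8 of 21 members were lower, where 15.4% of 4608 genes were. No comparison with genes of like level was made. Of the 32, 25 lay below 0, as did 68% of all genes, and their median was -0.67, against -0.22 over all genes. Relative to that all-gene median, 7 members were lower by at least 1 log2, where 5.41% of genes were, and 0 higher, where 3.46% were. By role, the lower genes were 5 of 14 glycolytic and lactate dehydrogenase genes, 1 of 3 oxidative and 2 of 3 non-oxidative pentose phosphate genes and 1 of 4 side-branch genes. None of the 4 transporters and none of the 4 hypoxia genes was among them on the plates. Ldha had 9.83 log2 in KO and 9.37 in WT CD8 cells (+0.46), but its mean was 1822 FPKM in KO and 2538 FPKM in WT cells and its Population value 4671 FPKM in KO and 6456 in WT, so the sign depended on the scale. Pdk1 had 1.80 log2 in KO and 1.04 in WT (+0.75), with an average of 42.2 FPKM in KO and 17.6 in WT cells and Population values of 29.1 FPKM in KO and 23.8 in WT. In bulk libraries, fewer cells of a type and less RNA per cell cannot be told apart.

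In the CD8 Population libraries, 24 of the 32 members were lower in KO than in WT, where 47.9% of all genes were. There 5 were lower by at least 1 log2 (7.96% of genes) and 2 were higher (11.1%), and the members' median was -0.45 against 0.02 over all genes. The 5 were Eno3 at -1.515, the transporters Slc2a1 at -1.39 and Slc16a3 at -1.35, Tpi1 at -1.22 and the hypoxia gene Bnip3 at -1.15. Higher were the hypoxia gene Egln3 at 2.48 and Bpgm at 2.01. Of these, Eno3, Slc16a3, Bnip3 and Egln3 had passed the detection limit on the WT plate alone. Of the 9 genes called lower on the plates, 8 were also below 0 in the Population libraries and 1, Tpi1 at -1.22, by at least 1 log2. Rpe was the exception at 0.07, with 74.4 FPKM in KO and 70.7 in WT. The sign differed between plates and Population libraries for 9 members in all. Neither this count nor the share of called genes below 0 in both was made over all genes. The sum over the 17 glycolytic enzyme and lactate dehydrogenase genes took a median of 0.933% of a cell's FPKM in KO CD8 and 1.28% in WT CD8 cells, and 1.60% in the KO and 2.24% in the WT Population library.

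Depth moved with this difference, since KO CD8 cells had fewer detected genes and reads. In 47 pairs of KO and WT CD8 cells matched on detected genes, 3 members were lower (4.35% of genes) and 2 higher (5.51%), with a median of -0.34 against 0.01 over all genes. In 34 pairs matched on estimated reads, 4 were lower (5.95%) and 3 higher (8.21%), with a median of -0.10 against 0.02. Pgk1 and Tpi1 were lower by at least 1 log2 in both matched sets. In the gene-matched cells Pgk1 was at -1.90, Tpi1 at -1.27, Pgls at -0.83, Gpi1 at -0.77, Pgam1 at 0.59 and Pdk1 at 1.11. In the read-matched cells Pgk1 was at -1.24, Tpi1 at -1.11, Pgls at -1.15, Gpi1 at -0.86, Pgam1 at -0.85 and Pdk1 at 1.51. Altogether 12 members were below 0 in the plate means, the Population libraries and both matched sets. They were Slc2a1, Gpi1, Aldoa, Tpi1, Gapdh, Pgk1, Slc16a3, Pgm2, Pgls, Pgd, Tkt and Taldo1. The share of all genes below 0 by all 4 measures was not counted. Matched cells are part of the kept cells, so these measures are not independent.

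**Figure D2:**
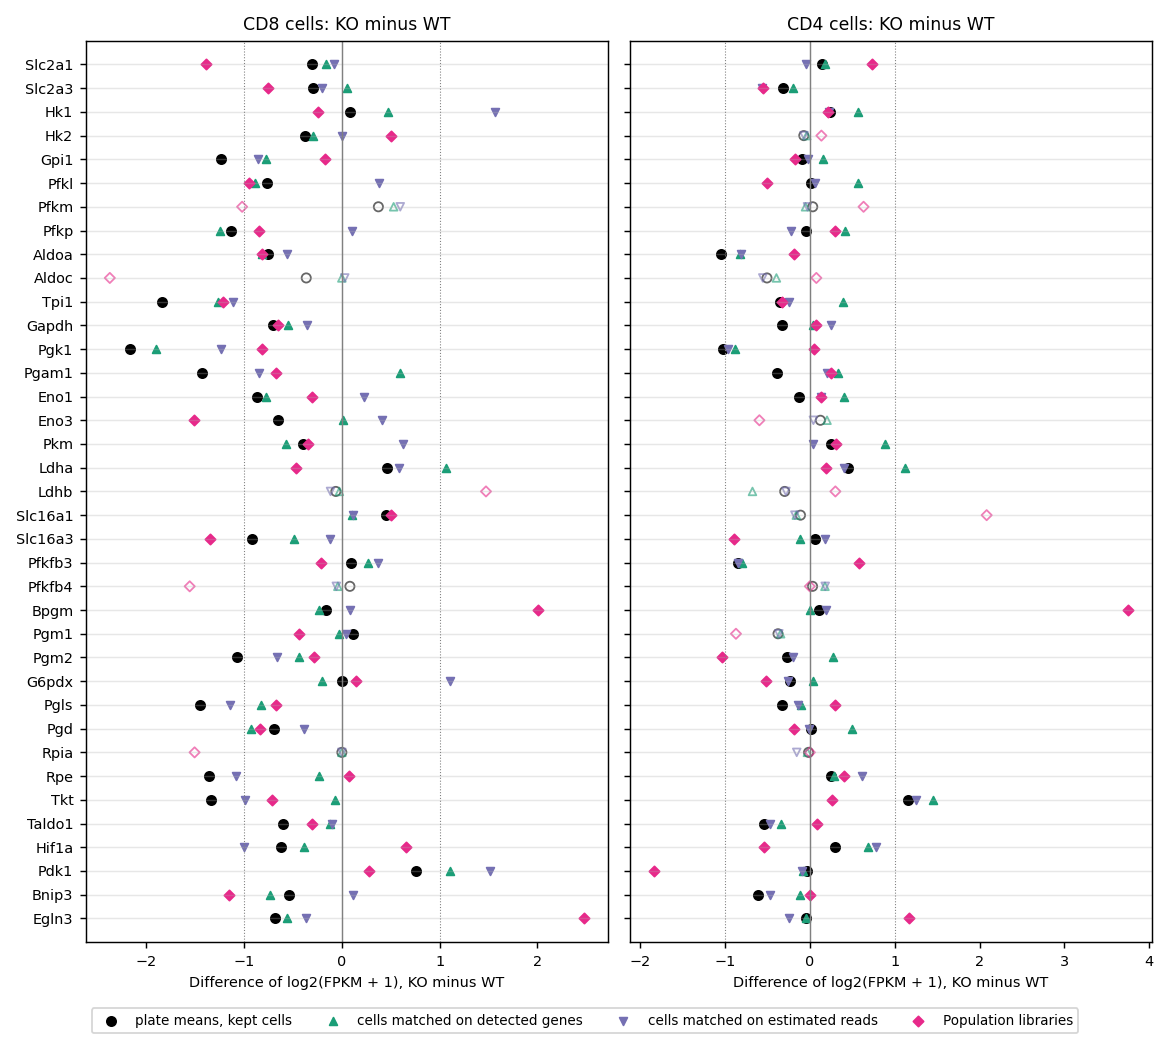
Difference of log2(FPKM + 1) between KO and WT for each gene in CD8 cells (left) and CD4 cells (right): plate means over kept cells, cells matched on detected genes, cells matched on estimated reads, and Population libraries; open symbols are genes detected in under 10% of cells of both plates, and dotted lines mark 1 log2. In CD8 cells Pgk1 and Tpi1 lie left of 0 by all 4 measures, and in CD4 cells most points lie near 0.

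Other RNA also moved with the CD8 comparison. Of 20 proliferation genes, 14 were detected in at least 10% of KO CD8 and 20 in at least 10% of WT CD8 cells, none was at 0 on either plate, and their summed mean was 1300 FPKM in KO and 3250 in WT. Of 8 melanoma markers, 1 reached that share in KO CD8 and 4 in WT CD8 cells, 2 were at 0 in KO and none in WT, and the summed mean was 27.5 FPKM in KO and 508.2 in WT. The part of proliferating cells in the result was not tested. Without doubtful cells 46 KO and 33 WT CD8 cells were left, and 16 of 31 members were lower by at least 1 log2 (19% of genes) and 1 higher (2.23%). Most doubtful cells had only Tyr, a pigment gene listed at 1 FPKM or more in 97.4% or more of cells of every plate, and without using Tyr, a choice made after seeing the data, 69 KO and 55 WT cells gave 11 of 31 members lower (13.6% of genes) and 0 higher (1.83%).

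The second comparison was KO CD4 against WT CD4 cells, plates of like depth. Here most members were close to equal, with Aldoa and Pgk1 lower and Tkt higher on the KO plate. Of the 37 genes, 28 were detected in at least 10% of cells of either plate, 23 on both, Bpgm and Egln3 on the KO plate alone and Pfkfb3, G6pdx and Bnip3 on the WT plate alone. Aldoa had 7.96 ± 4.36 log2 in KO and 9.0 ± 3.78 in WT CD4 cells (SD over 78 and 74 cells), a difference of -1.04, with Population values of 3312 FPKM in KO and 3756 in WT. Pgk1 had 4.55 in KO and 5.57 in WT (-1.02), but 1019 FPKM in KO and 981.9 in WT in the Population libraries. Tkt had 4.31 ± 4.09 in KO and 3.15 ± 4.02 in WT (+1.16), detected in 55.1% (43.4 to 66.4) of KO and 40.5% (29.3 to 52.6) of WT CD4 cells, with Population values of 400.6 FPKM in KO and 334.2 in WT.

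These 2 of 28 members lower stand beside 2.51% of 7063 genes, and the 1 higher beside 2.53%. Below 0 were 17 of 28 members (53.5% of genes), and the median was -0.07 against -0.04 over all genes. Relative to that median, 1 member was lower (2.19% of genes) and 1 higher (2.86%). Of the next widest, Pfkfb3 had 0.21 log2 in KO and 1.05 in WT CD4 cells (-0.84), Bnip3 0.66 in KO and 1.28 in WT (-0.62), and Taldo1 3.99 in KO and 4.53 in WT (-0.54). All 3 had Population differences of another sign or near 0, at 0.58 for Pfkfb3, -0.0039 for Bnip3 and 0.08 for Taldo1. In the CD4 Population libraries 12 of the 28 were lower in KO than in WT (49.7% of genes), 2 by at least 1 log2 (13.4%), and 2 were higher by as much (12.9%). In 58 pairs matched on detected genes 0 members were lower by at least 1 log2 (3.1% of genes) and 2 higher (4.39%), which were Tkt and Ldha (1.12). In 57 pairs matched on reads 0 were lower (3.2%) and 1 higher (4.91%). In the gene-matched cells Tkt was at 1.45, Aldoa at -0.82 and Pgk1 at -0.89, and in the read-matched cells Tkt was at 1.25, Aldoa at -0.81 and Pgk1 at -0.96. Foxp3, which marks regulatory T cells, was detected in 47.4% of KO CD4 and 36.5% of WT CD4 cells. The myeloid markers summed to a mean of 664.2 FPKM in KO CD4 and 2510 in WT CD4 cells, with 1 of 12 in at least 10% of KO and 2 of 12 in at least 10% of WT cells, and to 399.5 FPKM in the KO and 56.3 in the WT Population library. Without doubtful cells (41 KO and 44 WT) 2 of 29 members were lower (5.71% of genes) and 2 higher (5.86%), and with Tyr not used 1 of 28 was lower (2.73%) and 1 higher (3.4%). Without Foxp3-positive cells 2 of 25 members were lower (4.91% of genes) and 1 higher (5.44%), with Tkt at 2.04, Aldoa at -1.10 and Pgk1 at -1.36.

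**Figure D3:**
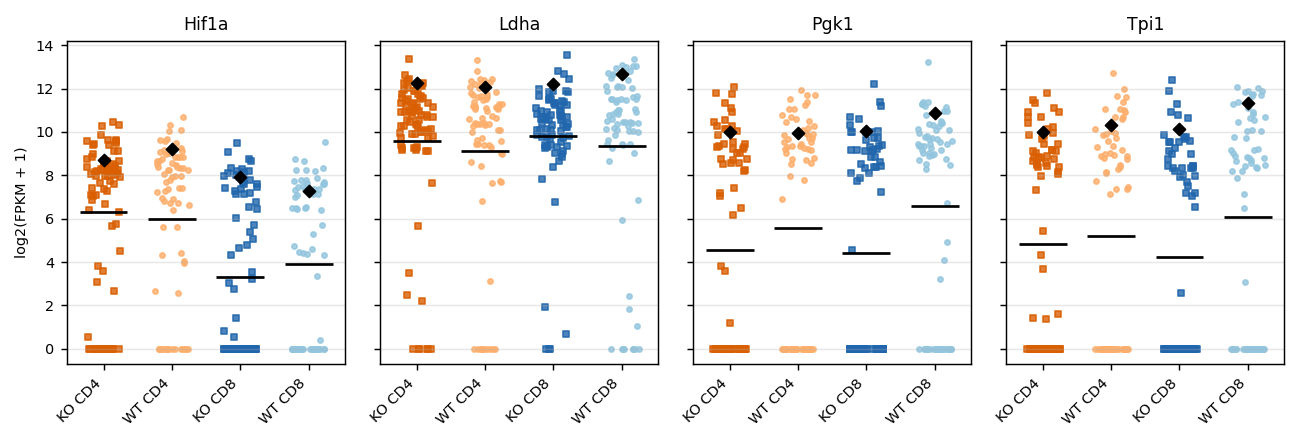
Level of Hif1a, Ldha, Pgk1 and Tpi1 in single cells, as log2(FPKM + 1), by plate; each coloured point is a kept cell, the bar is the mean over cells and the black diamond the Population library. For Hif1a fewer CD4 than CD8 cells lie at 0, and for Pgk1 and Tpi1 fewer WT CD8 than KO CD8 cells do.

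The third comparison set CD4 against CD8 cells within both sources. Hif1a was the member that stood apart, higher in CD4 cells of both sources. By GENCODE M21 (GRCm38) Hif1a lies on chromosome 12 from 73901375 to 73947530. Hif1a had a mean of 6.30 ± 3.53 log2 in KO CD4, 6.00 ± 3.66 in WT CD4, 3.30 ± 3.60 in KO CD8 and 3.93 ± 3.59 in WT CD8 cells (SD over cells). Its mean was 296.6 FPKM in KO CD4, 284.7 in WT CD4, 89.2 in KO CD8 and 96.8 in WT CD8 cells, and its Population value was 411 FPKM in KO CD4, 599.8 in WT CD4, 242.8 in KO CD8 and 153.9 in WT CD8. Both CD4 values thus lay above both CD8 values by each measure. By limma on the 4 plate means blocked on source, with p adjusted by Benjamini-Hochberg over 8427 genes, the CD4 minus CD8 difference was 2.54 (SE 0.57, adjusted p = 0.000906). Without the replicate block the adjusted p was 0.0551, and over 19 alternatives the difference was 1.36 to 3.35 with adjusted p between 0.000177 and 0.41, under the threshold in 11. Without the KO CD4 plate the limma adjusted p was 0.41 (difference 2.39) and without the WT CD4 plate 0.181 (difference 2.69).

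Hif1a was also read by Foxp3, the factor that defines regulatory T cells. Hif1a was detected in 94.6% of 37 Foxp3-positive KO CD4 cells (81.8 to 99.3) and 65.9% of 41 Foxp3-negative ones (49.4 to 79.9). In WT CD4 cells it was 81.5% of 27 Foxp3-positive (61.9 to 93.7) and 74.5% of 47 Foxp3-negative cells (59.7 to 86.1). The KO intervals do not overlap and the WT intervals do. These intervals cover counting error among the cells of a plate only. Whether the Foxp3 difference itself differs between KO and WT was not tested. The median number of detected genes was 2076 in Foxp3-positive and 2095 in Foxp3-negative KO cells, and 2316 in Foxp3-positive and 1966 in Foxp3-negative WT cells. With Foxp3-positive cells left out of both CD4 plates, the CD4 minus CD8 difference of Hif1a was 1.68 (adjusted p = 0.117 by limma).

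Other RNA also moved between the CD4 and CD8 plates. The 12 myeloid markers summed to a mean of 664.2 FPKM in KO CD4, 2510 in WT CD4, 126.6 in KO CD8 and 345.6 in WT CD8 cells, with 1 marker in at least 10% of cells on each plate but WT CD4, which had 2. In the Population libraries the sum was 399.5 FPKM in KO CD4, 56.3 in WT CD4, 511.2 in KO CD8 and 387.3 in WT CD8. The 20 proliferation genes summed to 866.6 FPKM in KO CD4, 818 in WT CD4, 1300 in KO CD8 and 3250 in WT CD8 cells. Without doubtful cells the Hif1a difference was 2.77 (adjusted p = 0.0491 by limma), and with Tyr not used 2.17 (adjusted p = 0.0716 by limma). The part of proliferating cells was not tested.

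Eno3, the muscle-type enolase, was detected in 3.85% of KO CD4, 2.70% of WT CD4, 9.09% of KO CD8 and 16.7% of WT CD8 cells. Its Population value was 17.7 FPKM in KO CD4, 27.2 in WT CD4, 93.2 in KO CD8 and 268.3 in WT CD8. The CD4 minus CD8 difference was -0.84. Eno3 passed the detection limit only through the WT CD8 plate, where it is highest, so it had to differ and this value is a description. With no filter on low values its adjusted p was 0.0508 by limma.

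Of the 32 members tested, Hif1a was thus the 1 higher at a limma adjusted p under 0.05 (1.11% of all genes were higher). Eno3 was the 1 lower (6.33% of genes), and nothing is read from it. The members' median was -0.30 against -0.27 over all genes, but 0.38 against -0.0046 in cells matched on detected genes and -0.01 against -0.11 in cells matched on reads. Of the other wide differences, Pgam1 (-1.18, SE 0.56, adjusted p = 0.177), Tkt (-0.98, SE 0.55, 0.274), Rpe (-0.91, SE 0.37, 0.104) and Pgd (-0.90, SE 0.42, 0.173) missed the limma threshold, which does not show that they were equal. Tkt had opposite signs in the 2 sources, at 0.27 in KO and -2.23 in WT, and so had 7 other members. Rpe stood at -0.11 in KO and -1.72 in WT, Pgam1 at -0.66 in KO and -1.71 in WT, and Pgd at -0.55 in KO and -1.25 in WT. Below 0 in both sources, on plates and in Population libraries, were 9 members, namely Slc2a3, Hk2, Gapdh, Eno3, Slc16a1, Pfkfb3, Pgd, Rpe and Taldo1. Above 0 in all 4 were Slc16a3, Hif1a and Bnip3. The share of all genes with such signs was not counted. Hk2, Slc16a1 and Eno3 reached 10% of cells on CD8 plates alone, so the filter favoured a value below 0 for them. Of the 9, 5 were above 0 in gene-matched cells, where Slc2a3 stood at 0.77, Gapdh at 0.37, Pgd at 0.23, Rpe at 0.02 and Taldo1 at 1.097, and of the wide differences Pgam1 at 0.30 and Tkt at 0.30. Hif1a was at 3.33 there. Hk2 had Population values of 2.23 FPKM in KO CD4 and 1.94 in WT CD4, against 26.5 in KO CD8 and 18.4 in WT CD8, while on the plates its difference was -0.43 (adjusted p = 0.215 by limma). These p-values measure the spread between 4 plates pooled over all genes, not the spread between mice.

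**Figure D4:**
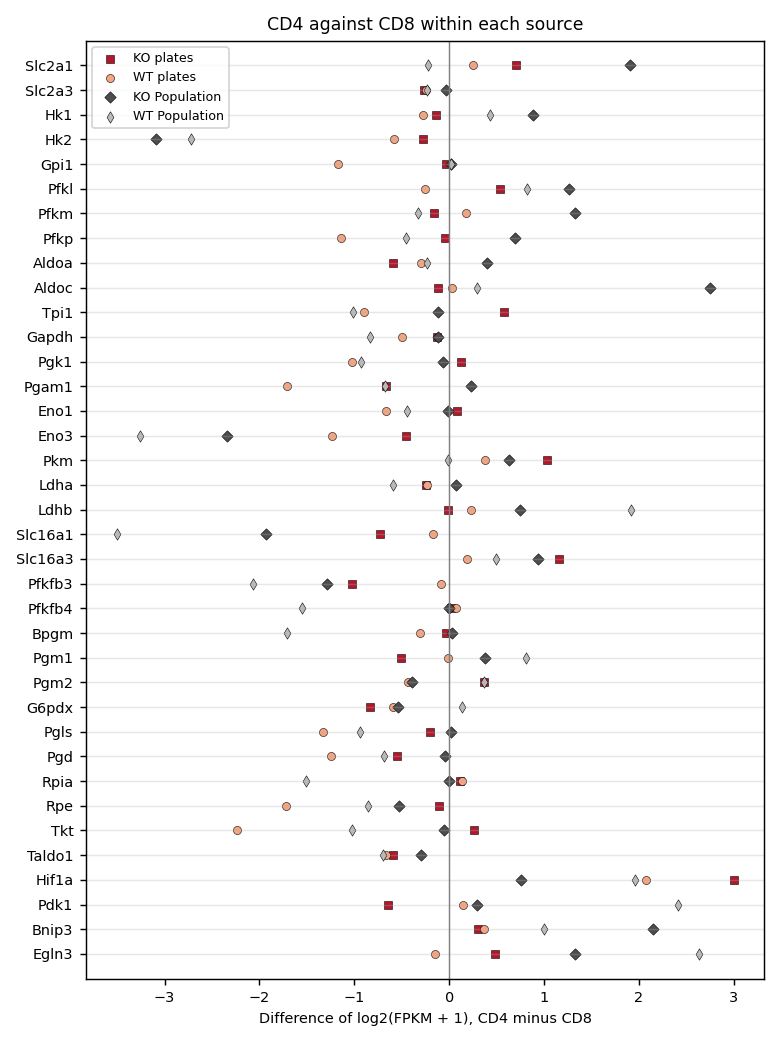
Difference of log2(FPKM + 1) between CD4 and CD8 for each gene, within the KO source (squares and dark diamonds) and within the WT source (circles and light diamonds), for plate means over kept cells and for Population libraries. Hif1a lies right of 0 in all 4, at 3.0 on the KO and 2.08 on the WT plates, and Eno3 lies left of 0 in all 4.

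Counting steps per cell gave the pathway view. Of the 10 enzymatic steps between hexokinase and pyruvate kinase, a step was counted when any of its member genes was detected. The median was 7 steps in KO CD4, 7 in WT CD4, 7 in KO CD8 and 8 in WT CD8 cells. At least 8 steps were found in 39.7% of KO CD4 (28.8 to 51.5), 41.9% of WT CD4 (30.5 to 53.9), 37.7% of KO CD8 (26.9 to 49.4) and 62.5% of WT CD8 cells (50.3 to 73.6). The intervals of the 2 CD8 plates do not overlap, and they cover counting error only. In CD8 cells matched on detected genes the share was 36.2% (22.7 to 51.5) in KO and 53.2% (38.1 to 67.9) in WT, and in cells matched on reads 50% (32.4 to 67.6) in KO and 61.8% (43.6 to 77.8) in WT. Both pairs of intervals overlap. All 10 steps were found in 16.7% of KO CD4, 16.2% of WT CD4, 14.3% of KO CD8 and 26.4% of WT CD8 cells. Hexokinase was the step most often missing, found in 35.9% of KO CD4, 35.1% of WT CD4, 40.3% of KO CD8 and 43.1% of WT CD8 cells.

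**Figure D5:**
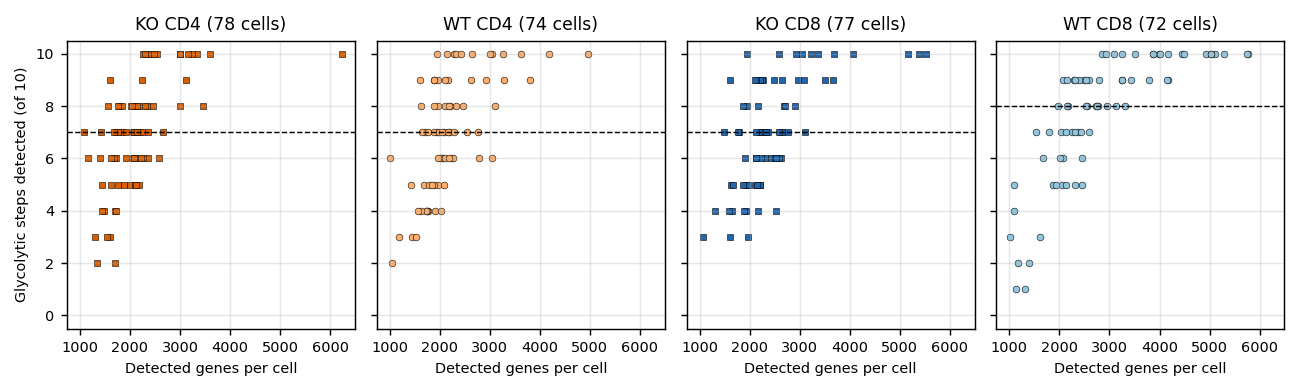
Number of the 10 glycolytic steps detected in each kept cell against its number of detected genes, by plate; each point is a cell and the dashed line is the plate's median. Cells with more detected genes have more steps on every plate, and the median is 7 on 3 plates and 8 for WT CD8.

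Across cells the abundant members were high and low together, and with the number of detected genes. For the summed log2 level of the 16 members detected in at least 25% of cells of every plate, Spearman's rho with detected genes was 0.70 over 78 KO CD4, 0.61 over 74 WT CD4, 0.65 over 77 KO CD8 and 0.905 over 72 WT CD8 cells. A sum is less noisy than 1 gene, and for single members the median rho with detected genes was 0.39 in KO CD4, 0.33 in WT CD4, 0.35 in KO CD8 and 0.65 in WT CD8 cells. Over all genes detected in at least 25% of cells of the plate the median was 0.20 in KO CD4, 0.19 in WT CD4, 0.21 in KO CD8 and 0.37 in WT CD8 cells. Gapdh tracked the other 15 most closely on 3 plates, with rho of 0.725 in KO CD4, 0.747 in WT CD4 and 0.91 in WT CD8 cells, and Eno1 did in KO CD8 cells at 0.68. Given detected genes, the median partial rho of a member with the others was 0.28 in KO CD4, 0.47 in WT CD4, 0.31 in KO CD8 and 0.23 in WT CD8 cells. With the number of proliferation genes detected, the summed level had rho of 0.30 in KO CD4, 0.26 in WT CD4, 0.37 in KO CD8 and 0.72 in WT CD8 cells, and given detected genes these were -0.02 in KO CD4, 0.12 in WT CD4, 0.10 in KO CD8 and 0.09 in WT CD8 cells. Cells of a plate share 1 library preparation, so these are descriptions.

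Further genes of the same pathways were read from 83 listed symbols, of which 82 were in the table. Between KO and WT CD8 cells 48 passed the detection limit, and 6 were lower (9.19% of all genes) and 0 higher (2.07%), with a median of -0.23 against -0.22 over all genes. This is close to the whole table, and the genes named here are examples. Anxa2, an annexin counted among hypoxia-inducible genes, had 5.09 log2 in KO and 8.69 in WT CD8 cells (-3.60), and a Population value of 3153 FPKM in KO and 6431 in WT. Higd1a, a hypoxia-inducible mitochondrial protein, had 1.72 in KO and 4.04 in WT (-2.32), and Bsg, the chaperone of the lactate transporters, 4.60 in KO and 6.01 in WT (-1.41). The 10 growth signalling genes had a median of -0.01 with none called, and the 6 measured oxygen-sensing genes 0.13 with none called. The 11 other hypoxia-inducible genes had a median of -0.57 with 3 lower. The 9 genes of pyruvate entry into mitochondria had -0.63 with 2 lower. The 6 other isoforms of the glycolytic steps had -0.25 with 1 lower, and the 6 other pentose phosphate and ribose genes -0.21 with 0 lower. Between KO and WT CD4 cells 1 of 43 was lower (2.51% of all genes) and 1 higher (2.53%), shares near those of all genes. The gene higher was Nampt, an enzyme of NAD synthesis, at 2.00 in KO and 0.94 in WT (+1.06). Between CD4 and CD8 cells 0 of 51 were higher (1.11% of all genes) and 4 lower (6.33%) by limma, again near the share of all genes. The 4 were Anxa2 (-2.20, adjusted p = 0.00689), Pdhb, a subunit of pyruvate dehydrogenase (-1.89, 0.00444), Myc, a growth regulator (-1.17, 0.0306), and Prps1, which makes the activated ribose for nucleotides (-0.89, 0.0406).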

How the data were processed

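Smart-seq2 libraries of 376 single T cells, 4 Population libraries and 4 no-cell wells were read from the deposited table. The authors deposited TMM-normalized FPKM, made with Bowtie and RSEM on mm10 per the submitters' processing notes, which give no versions. No read counts were given, so no count test was run. The reads behind each cell were estimated from steps between low FPKM values with GENCODE M21 transcript lengths (93% of symbols). Only 44% of low values lay within 0.1 of a whole read (20% if even), so these estimates served only to match cells. Depth matching took pairs of cells within 100 detected genes or 10% of estimated reads. For genotype a pair was 1 KO and 1 WT cell of the same cell type. For CD4 minus CD8 it was 1 CD4 and 1 CD8 cell of the same source. Matching on genes gave 56 KO and 42 WT pairs there, and matching on reads 58 KO and 36 WT pairs. Intervals of shares are exact (Clopper-Pearson, 95%) and hold counting error alone. Genotype has 1 plate per cell type and no test. CD4 minus CD8 used limma 3.58.1 in R 4.3.3, a mean-variance trend and the source label as a block, leaving 1 residual degree of freedom and an infinite prior weight. The pairing comes from the source names in the titles. Simulated data were used to check the fits. The 37 genes and the lists were chosen with earlier results of these data known. Named were the highest gene of each step and the 6 widest differences of a comparison, some without values for every plate and Population library. Of further pathway genes, those called with the same sign in the Population libraries were named for genotype, and all 4 called for CD4 minus CD8, these chosen after their values were seen. Alternatives were other pseudocounts (0.1 and 10 FPKM), means, scaling, filters, cell sets, no block and leaving out each plate.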

Additional observations from a re-analysis of the deposited data

Results flagged for a closer look

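For 5 genes the KO minus WT difference had one sign in CD4 and the opposite sign in CD8 cells, by plate means and by Population libraries alike, and with 1 plate per group this was not tested. The CD4 difference less the CD8 difference of plate means was 2.50 log2 for Tkt, 0.65 for Pkm, 0.45 for Slc2a1, -0.24 for G6pdx and -0.79 for Pdk1. On the plates G6pdx was at 0.0052 in CD8 and Pdk1 at -0.037 in CD4 cells, both near 0. The share of all genes with such opposite signs was not counted. For Tkt the KO minus WT difference was 1.16 in CD4 and -1.34 in CD8 cells on the plates, and 0.26 in CD4 and -0.72 in CD8 in the Population libraries. In gene-matched cells Tkt stood at 1.45 in CD4 and -0.07 in CD8.

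The no-cell well of the WT CD4 plate listed Gapdh at 1685.6 FPKM, below the mean of 4368 FPKM in kept cells of that plate. The other 3 no-cell wells listed Gapdh at 0, and none of the other 36 genes reached 1 FPKM in a no-cell well.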

How the results depend on the processing

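In CD8 cells the count of members lower in KO by at least 1 log2 was 9 and moved to 2 with a pseudocount of 10 FPKM (1.69% of all genes), 14 with 0.1 FPKM (20.1%), 5 with arithmetic means (12.04%), 14 in cells with at least 2000 detected genes (13.6%), 3 in gene-matched and 4 in read-matched cells, 16 without doubtful cells and 5 in Population libraries. The count of members higher was 0 and became 2 with arithmetic means (8.22% of genes), 2 in gene-matched and 3 in read-matched cells, 1 without doubtful cells and 2 in Population libraries. Pgam1 turned to 0.59 in gene-matched cells, Pfkp to 0.10 in read-matched cells and Rpe to 0.07 in Population libraries. The other 6 of the 9 were below 0 under all 13 alternatives. The 9 were chosen on the cells that most alternatives reuse, and changing the filter leaves a gene's difference as it was. This is thus a description, and it was not counted over all genes. In CD4 cells the 2 members lower became 0 with a pseudocount of 10 FPKM (0.326% of genes), 0 with at least 2000 genes (5.85%), 0 in gene-matched and 0 in read-matched cells and 1 without doubtful cells when Tyr was not used. The 1 member higher became 0 with a pseudocount of 10 FPKM (0.665% of genes) and 0 with arithmetic means (8.48%), and 2 in gene-matched cells, without doubtful cells and in Population libraries. There Pgk1 turned to 0.05. The cause of these moves was not tested.

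For CD4 minus CD8 (limma), without the replicate block 0 members were higher and 0 lower, against 1 and 1, the 1 lower being Eno3, which passed the detection limit through WT CD8 alone. With a pseudocount of 10 FPKM, in cells with at least 2000 genes, without doubtful cells when Tyr was not used and in Population libraries both counts were 0. They were 2 and 0 in gene-matched cells, where the median was 0.38, and 0 and 2 without Foxp3-positive cells. The count lower was 0 without the filter, at 25% of cells, with the filter over all plates and in read-matched cells. Leaving out each plate gave 0 to 1 higher and 0 to 4 lower, the 4 of 32 without the KO CD8 plate, where 12.7% of all genes were lower. The lone plate was then assumed to vary like the others. The share of cells with at least 8 steps was 50% in read-matched KO CD8 cells, 75.8% of WT CD8 cells without doubtful cells, and with at least 2000 genes 55.3% in KO CD4, 56.1% in WT CD4 and 75.9% in WT CD8 cells. Alternatives matched on reads for steps, and those without Tyr, were chosen after seeing the data. With 72 to 78 cells a plate, a share of 0 has an exact upper limit near 5%.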
